A study of Mus musculus with 8 samples.

Results

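Lipid uptake and storage genes (10 of the 25240 gene symbols in the count table) were followed in Tomato-negative and Tomato-positive kidney cells: Lpl and Angptl4 of lipoprotein lipolysis, Cd36, Slc27a2 and Fabp1 of fatty acid uptake, Mogat1, Dgat1 and Dgat2 of glyceride synthesis, and Plin2 and Pnpla2 of the lipid droplet. They were selected on measured values of these same libraries: the difference between Tomato-positive and Tomato-negative cells over the pairs and within the title prefixes was known when the list of symbols was drawn up. Values of that comparison are therefore descriptions, and no p-value is given for the 10 genes in it. The cells fell into 2 groups of 4 libraries each, Tomato-negative and Tomato-positive, all from p16-tdTomato mice with chronic kidney disease induced by adenine-rich feeding. No library of a mouse without kidney disease was analysed here, so both groups share the disease. p16 is the cell cycle inhibitor encoded by Cdkn2a and tdTomato is a red fluorescent protein. The sources used here do not state how the reporter was built, how positive and negative cells were separated, the strain, age and sex of the mice or whether animals were pooled. Each of the identifiers CKD523_2, CKD523_3, CKD627_1 and CKD627_2 names 1 negative and 1 positive library, called a pair here, and the meaning of the prefixes CKD523 and CKD627 is not given.

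Proximal tubule cells burn fatty acids for most of their energy. Fatty acids reach a cell bound to albumin or are cut from circulating triglyceride by lipoprotein lipase, are carried in by CD36 and fatty acid transport proteins, and are bound in the cytosol by fatty acid-binding proteins. What is not burned is esterified step by step to diglyceride and triglyceride and stored in droplets, from which lipases release it again. Many of these genes are targets of PPAR alpha, a nuclear receptor activated by fatty acids that binds, together with RXR, to repeats of the half-site AGGTCA.

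Total counts per library lay between 13474439 and 19886202, and levels are given in counts-per-million (CPM), scaled to that total. The reporter tdTomato was at 79.5 to 159 CPM in negative and 3167 to 4143 CPM in positive libraries. Cdkn2a was at 0.285 to 2.40 CPM in negative and 0.339 to 2.87 CPM in positive libraries. The labels call all cells proximal tubular epithelial cells, and all 14 proximal tubule markers looked for were detected, among them the endocytic receptor Lrp2. Markers of other segments were present as well: 6 markers of the loop of Henle summed to between 1665 and 14895 CPM per library. In bulk libraries, fewer cells of a type and less RNA per cell cannot be told apart. The labels do not say that libraries came from separate animals, so the errors measure the spread between these samples, which may be technical.

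Promoter windows of 300 bases (250 before and 50 after the start, RefSeq, build GRCm38.p6, the mm10 assembly) were found for 6 of the 10 genes: Mogat1, Cd36, Slc27a2, Fabp1, Plin2 and Pnpla2. The windows of Cd36 and Slc27a2 lie wholly inside the gene spans given below, so they are not at the outermost annotated start of these genes. The repeat of PPAR sites was searched on both strands as AGGTCANAGGTCA, in a looser form as AGGNCANAGGNCA, and as the single half-site AGGTCA, whose hits can overlap the repeats. The exact repeat was in none of the 6 windows and in 0.0396% of all 32851 mouse windows of this length. The looser repeat was in that of Fabp1 and in 0.381% of all windows. The half-site was in 4 of the 6 (Cd36, Slc27a2, Plin2 and Fabp1) and in 16.3% of all windows. Those of Mogat1, Cd36 and Slc27a2 are shown because these had the largest Tomato differences of the 6, and that of Fabp1 for its repeat. Capitals mark half-sites and the repeat, on the strand of the gene or its complement (TGACCT).
Mogat1 (chr1:78510810-78511109, plus strand): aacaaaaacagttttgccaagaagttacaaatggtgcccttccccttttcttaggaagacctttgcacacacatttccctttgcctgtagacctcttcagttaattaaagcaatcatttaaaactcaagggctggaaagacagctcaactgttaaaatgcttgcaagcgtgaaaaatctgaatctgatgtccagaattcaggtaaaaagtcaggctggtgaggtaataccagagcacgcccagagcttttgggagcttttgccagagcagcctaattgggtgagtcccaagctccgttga
Cd36 (chr5:17835847-17836146, minus strand): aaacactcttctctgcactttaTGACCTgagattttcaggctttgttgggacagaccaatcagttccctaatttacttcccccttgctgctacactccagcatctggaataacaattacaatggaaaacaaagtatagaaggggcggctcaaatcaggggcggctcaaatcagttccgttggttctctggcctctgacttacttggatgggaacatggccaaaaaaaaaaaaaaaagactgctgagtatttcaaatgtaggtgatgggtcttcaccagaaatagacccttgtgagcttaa
Slc27a2 (chr2:126552774-126553073, plus strand): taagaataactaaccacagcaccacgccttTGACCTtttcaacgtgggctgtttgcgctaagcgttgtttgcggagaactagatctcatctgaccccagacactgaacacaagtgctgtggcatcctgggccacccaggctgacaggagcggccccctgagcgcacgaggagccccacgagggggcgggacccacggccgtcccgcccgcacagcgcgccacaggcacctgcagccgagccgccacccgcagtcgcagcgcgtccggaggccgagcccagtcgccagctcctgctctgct
Fabp1 (chr6:71199629-71199928, plus strand): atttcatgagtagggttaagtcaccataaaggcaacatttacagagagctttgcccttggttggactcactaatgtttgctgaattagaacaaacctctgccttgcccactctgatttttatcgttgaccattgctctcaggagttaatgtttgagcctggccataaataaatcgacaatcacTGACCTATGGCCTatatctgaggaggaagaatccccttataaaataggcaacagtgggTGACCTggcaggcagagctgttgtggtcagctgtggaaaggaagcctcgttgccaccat
The Mogat1 window held none of the 3 motifs. A match is a description of the sequence, not of binding, which was not measured here.

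Lipoprotein lipase, encoded by Lpl (mm10, chromosome 8, 68880491 to 68907448, plus strand, protein-coding), splits the triglyceride of circulating lipoproteins. With pairs in the order CKD523_2, CKD523_3, CKD627_1 and CKD627_2, Lpl was at 350.4, 483, 237 and 305 CPM in the negative libraries and in their positive partners at 62.1, 126, 93.2 and 97.5 CPM. Every positive library lay below every negative one. The means were 344 ± 104 CPM (SD, n = 4) and 94.8 ± 26.3 CPM (SD, n = 4), so that positive cells held 27.6% of the negative level. With the pair as a block in the model (the paired fit), Lpl was 3.71-fold lower (log2 difference -1.89 ± 0.20, SE). It was lower within both prefixes, by -2.22 in CKD523 and -1.54 in CKD627 on the log2 scale. The positive library of CKD523_2 had the smallest share of its partner's level, 17.7%, and that of CKD627_1 the largest, 39.3%.

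Angptl4 (chromosome 17, 33773750 to 33781830, minus strand) encodes a secreted inhibitor of lipoprotein lipase that is induced by fasting and by PPAR receptors. Its negative libraries, in the same order, were at 64.0, 67.6, 28.7 and 29.2 CPM and its positive ones at 66.1, 68.9, 15.5 and 19.9 CPM. Within the CKD523 pairs Angptl4 was nearly level (103% and 102% of the partner), while within the CKD627 pairs it was lower (54.0% and 68.1%). Its level separated the prefixes and not the Tomato groups. The paired log2 difference was -0.37, with 95% bounds of -0.78 and 0.04.

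**Figure D1:**
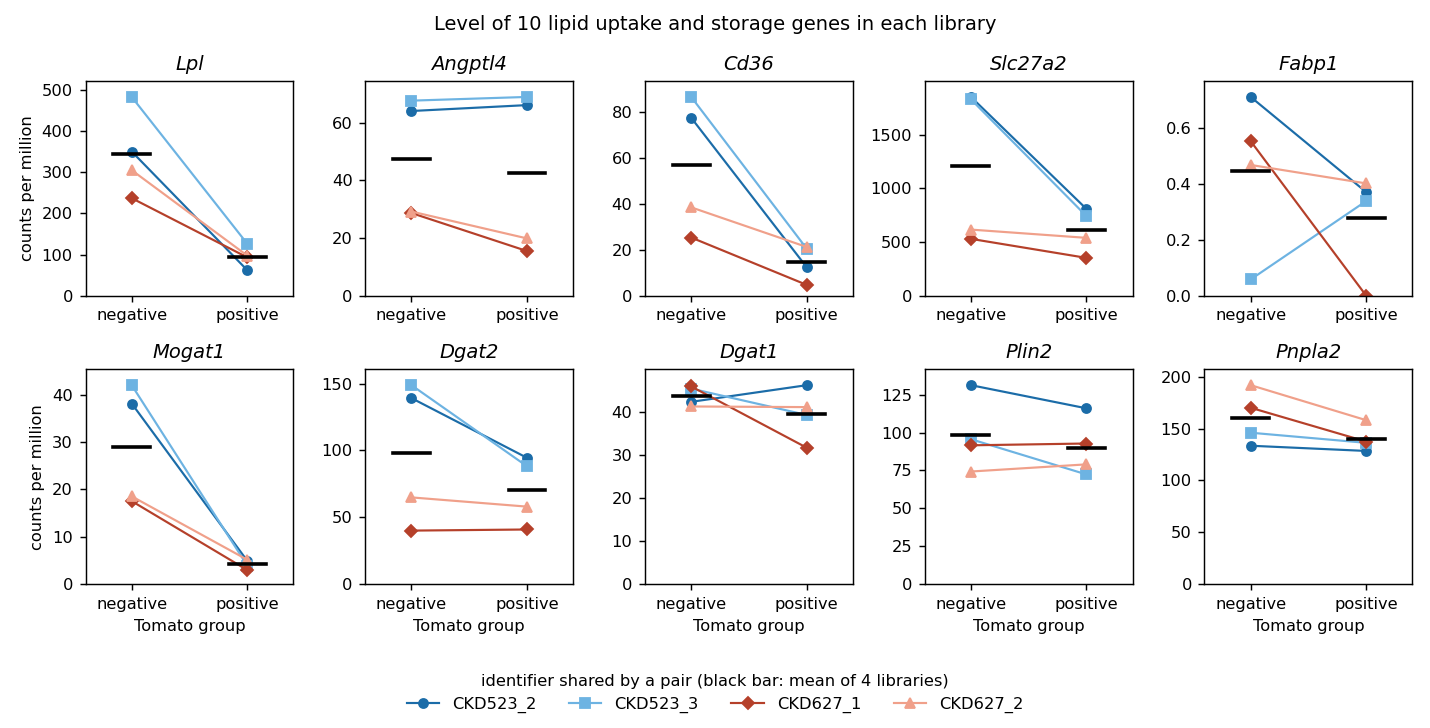
Level of each of the 10 genes in CPM (y axis, linear, from 0) in Tomato-negative and Tomato-positive libraries, with lines joining the 2 libraries of an identifier and black bars for the mean of 4 libraries. For Lpl, Cd36 and Mogat1 all positive libraries lie below all negative ones (Lpl at most 126 against at least 237 CPM), while Angptl4, Dgat2 and Slc27a2 are split by prefix.

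Cd36 (chromosome 5, 17781690 to 17888801, minus strand) encodes a scavenger receptor that takes up long-chain fatty acids and oxidised lipoproteins. It was at 77.5, 86.5, 25.3 and 38.5 CPM in the negative and at 12.4, 20.5, 4.72 and 21.2 CPM in the positive libraries. The groups did not overlap, although the lowest negative library, CKD627_1, was close to the highest positive one, CKD627_2. Means were 57.0 ± 29.6 and 14.7 ± 7.76 CPM (SD, n = 4 per group), and the paired difference was -2.03 ± 0.29 (SE) on the log2 scale, or 4.09-fold lower. The pair CKD627_2 stood out with 55.2% of the partner's level, against at most 23.7% in the other pairs. Cd36 was lower by -2.39 in prefix CKD523 and by -1.30 in prefix CKD627.

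Slc27a2 (chromosome 2, 126552407 to 126588243, plus strand) encodes FATP2, a transporter of fatty acids that also joins very long ones to coenzyme A. It was by far the most abundant of the 10 genes, also per kilobase of exons. Negative libraries held 1852, 1829, 529.8 and 616 CPM and positive ones 808, 741, 353 and 539 CPM. Each positive library was below its partner, but the groups overlapped, because both CKD627 negative libraries lay below both CKD523 positive ones. The positive libraries had 43.6% and 40.5% of the partner's level in CKD523 and 66.5% and 87.5% in CKD627. The paired log2 difference was -0.86 ± 0.21 (SE). The log2 ratio of Slc27a2 was -1.32 within CKD523 and -0.39 within CKD627.

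Fabp1, the liver-type fatty acid-binding protein gene (chromosome 6, 71199827 to 71205023, plus strand), was hardly detected. It had 10, 1, 9 and 7 counts in the negative and 5, 6, 0 and 8 counts in the positive libraries. It did not pass the filter on low counts and was the only 1 of the 10 genes not tested. The count of 0 in the positive library CKD627_1 allows a level of up to 0.197 CPM, counting 3 reads as the limit. No difference between the groups was detectable for Fabp1 at this depth.

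Mogat1 (chromosome 1, 78510991 to 78538173, plus strand) encodes monoacylglycerol acyltransferase, which makes diglyceride from monoglyceride. Its level was 38.2, 42.0, 17.5 and 18.5 CPM in the negative and 4.90, 3.90, 2.95 and 5.13 CPM in the positive libraries. This was the largest relative difference among the 9 genes tested: no positive library reached the lowest negative one, and the positive mean of 4.22 ± 0.999 CPM (SD, n = 4) was 14.5% of the negative mean of 29.1 ± 12.8 CPM (SD, n = 4). The paired log2 difference was -2.74 ± 0.29 (SE), a 6.68-fold lower level. It was -3.27 within CKD523 and -2.18 within CKD627. The negative libraries differed by prefix while the positive libraries of both prefixes lay in one narrow range, from 2.95 to 5.13 CPM.

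Dgat1 and Dgat2 encode diacylglycerol acyltransferases, which add the last fatty acid to make triglyceride and belong to unrelated protein families. Dgat2 (chromosome 7, 99153658 to 99182719, minus strand) was at 139, 149, 40.0 and 64.8 CPM in the negative and 94.5, 88.2, 40.8 and 57.9 CPM in the positive libraries. It was lower in 3 pairs, at 67.9%, 59.2% and 89.3% of the partner, and at 102% in CKD627_1. Dgat1 (chromosome 15, 76502015 to 76511953, minus strand) was at 42.4, 45.4, 45.9 and 41.3 CPM in the negative and 46.2, 39.3, 31.7 and 41.1 CPM in the positive libraries. It was the steadiest of the 3 glyceride synthesis genes, with overlapping groups and a paired log2 difference of -0.19 (95% bounds -0.56 and 0.17), against -0.40 (-0.79 and -0.02) for Dgat2. Per kilobase of exons, the level of Dgat2 was 2.03 to 3.26 times that of Dgat1 in the CKD523 libraries and 0.863 to 1.56 times in the CKD627 libraries.

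Plin2 (chromosome 4, 86648386 to 86670060, minus strand) encodes perilipin 2, the coat protein of droplets in most cells other than adipocytes. Its negative libraries were at 131, 95.6, 91.6 and 74.3 CPM and its positive ones at 116, 72.3, 92.8 and 79.0 CPM. Positive libraries were lower in both CKD523 pairs and higher in both CKD627 pairs. The paired log2 difference of -0.16 had 95% bounds of -0.49 and 0.17. Pnpla2 (chromosome 7, 141455198 to 141460743, plus strand) encodes the adipose triglyceride lipase, which starts the breakdown of stored triglyceride. It was at 133, 146, 170.2 and 192 CPM in the negative and 128, 136, 138 and 158 CPM in the positive libraries. Each positive library was a little lower than its partner (80.8% to 96.2%), the groups overlapped, and the 95% bounds of the paired log2 difference were -0.51 and 0.06. Without the block the bounds were wider for Plin2, -0.71 and 0.36, and -0.51 and 0.06 for Pnpla2.

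**Figure D2:**
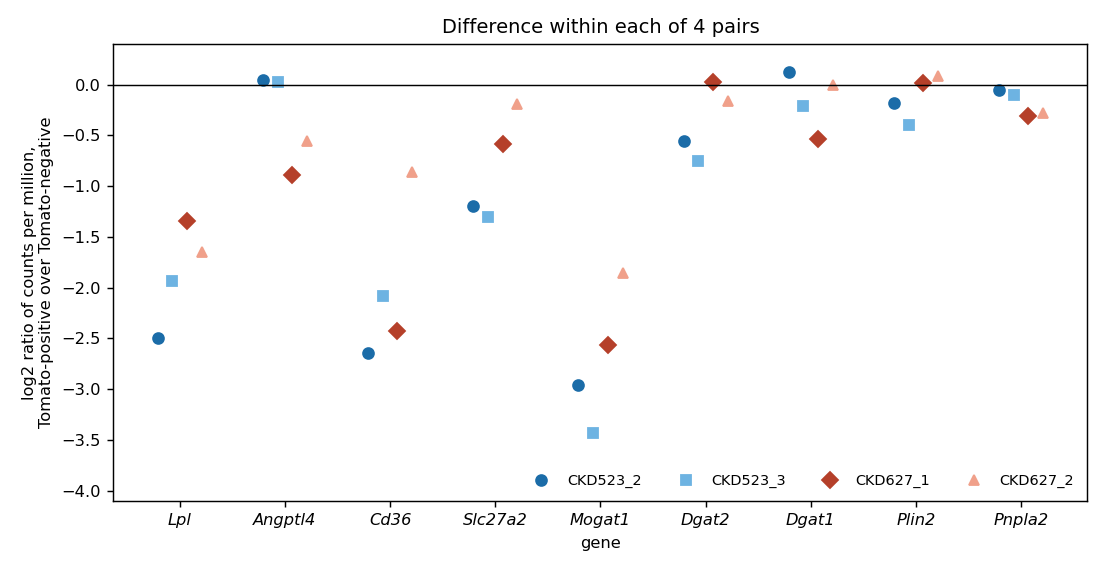
Log2 ratio of the CPM values of the Tomato-positive over the Tomato-negative library (y axis) in each of the 4 pairs, for the 9 genes that passed the filter on low counts. All 4 ratios of Lpl, Cd36 and Mogat1 lie at -0.86 or below, those of Dgat1, Plin2 and Pnpla2 between -0.54 and 0.13, and the CKD523 ratios of Slc27a2 lie below its CKD627 ratios.

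Set side by side, 3 genes (Lpl, Cd36 and Mogat1) had no overlap between the groups, where every positive library lay below every negative one in 5.69% of all 14284 genes tested. In edgeR's quasi-likelihood test without the block, Lpl and Mogat1 of the 9 tested genes passed the adjusted threshold of 0.05 as lower, against 0.231% of all genes. In the paired fit Cd36 and Slc27a2 were added, 4 of 9 against 3.81% of all genes. Within prefix CKD523 alone 5 passed, with Dgat2 added (8.38% of all genes were lower), and within CKD627 alone Lpl and Mogat1 (1.01%). DESeq2 without the block called Lpl, Mogat1 and Cd36 (3.62%), and limma-voom called Lpl (0.28%). In 5 of the 9 genes the positive library was lower in each of 4 pairs, as in 15.5% of all genes. Since the genes were chosen with this comparison known, nothing is read from these counts. The median paired log2 difference of the 9 was -0.40 and that of all genes 0.01. Without any 1 library and without the block, Lpl did not pass in any of 8 fits (log2 -2.12 to -1.67), and Mogat1 passed only without the negative library CKD627_1 or CKD627_2 (-3.06 to -2.58 over the 8). With the block, Lpl, Mogat1 and Cd36 passed without any 1 pair, while Slc27a2 did not pass without CKD523_2 (-0.74) or CKD523_3 (-0.70). The fits without 1 library or 1 pair reuse the libraries on which the genes were chosen. They cannot test these genes anew, and nothing is read from which of them passed. The Tomato differences within the prefixes were also known when the genes were chosen, so nothing is read from how they differed between prefixes.

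The order of the genes by level per kilobase of exons was not the same in the 2 groups. In negative libraries Slc27a2 came first (321 ± 195 CPM per kilobase, SD, n = 4), then Pnpla2 (53.1 ± 8.60), Lpl (32.8 ± 9.91), Dgat2 (31.9 ± 17.5), Plin2 (27.96 ± 6.81), Mogat1 (18.7 ± 8.25), Cd36 (15.9 ± 8.26), Dgat1 (14.3 ± 0.747), Angptl4 (13.4 ± 6.03) and Fabp1 (0.810 ± 0.504). Neighbours in this order overlapped between libraries except at both ends, where Slc27a2 and Fabp1 stood apart. In positive libraries Slc27a2 (163 ± 55.0) and Pnpla2 (46.4 ± 4.20) kept their places, and the means of Lpl (9.05 ± 2.51), Cd36 (4.10 ± 2.16) and Mogat1 (2.71 ± 0.641) were below those of Plin2, Dgat2, Dgat1 and Angptl4. Libraries of Angptl4 and Lpl overlapped: in both CKD627 positive libraries Lpl (8.90 and 9.31 CPM per kilobase) was above Angptl4 (4.37 and 5.61). Cd36 and Mogat1 overlapped as well, while Lpl and Cd36 did not. The exon length is that of all annotated transcripts together, 10.5 kilobases for Lpl, and understates the level of a gene whose main transcript is shorter.

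The prefixes were compared as well. Values by prefix were also known when the genes were chosen. The p-values below are therefore descriptions, and nothing is read from which of the 10 genes passed. For Angptl4, Slc27a2 and Dgat2 the highest CKD627 library lay below the lowest CKD523 library, a pattern that 7.2% of all genes showed. With the Tomato group as a covariate, Angptl4 was 3.26-fold lower (log2 -1.70 ± 0.17, SE, edgeR adjusted p = 1.49e-04), Slc27a2 2.62-fold lower (-1.39 ± 0.21, edgeR adjusted p = 0.00106) and Dgat2 2.50-fold lower (-1.32 ± 0.20, edgeR adjusted p = 0.00105). These 3 of 9 tested genes passed, all lower, where 11.4% of all genes were lower and 21.1% differed in either direction. The 2 libraries of an identifier are not independent here, so the p-values of this fit are too small. Within the 4 negative and within the 4 positive libraries, where each identifier counts once, the same 3 genes passed in edgeR (10.5% and 7.26% of all genes were lower). Among negative libraries alone 6 genes passed, with Lpl (-0.86 ± 0.24), Mogat1 (-1.39 ± 0.22) and Cd36 (-1.60 ± 0.24) added. Among positive libraries alone those 3 had log2 differences of -0.10 (95% bounds -0.70 and 0.49), -0.23 (-1.61 and 1.14) and -0.44 (-1.76 and 0.88). Pnpla2 and Dgat1 passed in none of these fits. Angptl4, Slc27a2 and Dgat2 passed without any 1 library, while 5 genes passed without the positive library CKD523_3 (Mogat1 and Plin2 added) or without the positive library CKD627_2 (Mogat1 and Cd36 added). Scaling by library size only shifted the log2 difference of all genes by a median of 0.15 (2127 genes higher and 1218 lower, against 1380 and 1634), and Angptl4, Slc27a2 and Dgat2 passed as before (-1.56, -1.24 and -1.17; 8.53% of all genes were lower).

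**Figure D3:**
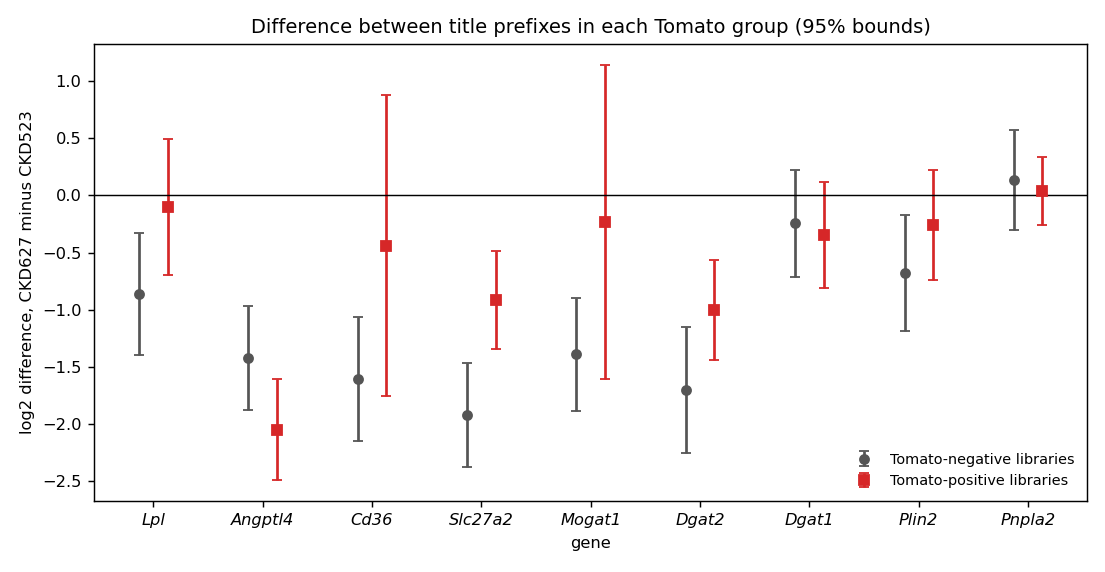
Log2 difference of CKD627 minus CKD523 libraries (y axis) for 9 genes, fitted among the 4 Tomato-negative (grey circles) and among the 4 Tomato-positive libraries (red squares), with 95% bounds. The bounds of Angptl4, Slc27a2 and Dgat2 lie below 0 in both groups, and those of Lpl, Cd36 and Mogat1 lie below 0 among negative libraries and span 0 among positive ones.

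Cell type markers moved along both comparisons. Of 14 proximal tubule markers, 11 were lower in CKD627 over both Tomato groups in edgeR, and their summed level was 9123 to 22124 CPM in CKD523 and 3765 to 7116 CPM in CKD627 libraries. All counts of markers by prefix given here are from that fit, whose p-values are too small because libraries sharing an identifier are not independent. In the Tomato comparison 6 of the 14 fell with the pairing (Slc22a6, Slc7a13, Slc22a7, Kap, Napsa and Slc5a8), and none rose. Of these, Slc22a7 was near the floor, with a mean of 2.40 CPM in negative libraries and no count in positive ones. The summed level overlapped, at 5910 to 22124 CPM in negative and 3765 to 9697 CPM in positive libraries. The other 8 did not pass, with paired log2 differences from -0.78 (Slc22a8) and -0.68 (Aqp1) over Slc34a1 (-0.17), Cubn (-0.09), Lrp2 (-0.08) and Hnf4a (-0.06) to 0.61 (Slc5a12) and 0.70 (Slc5a2). With the pairing, markers of the loop of Henle fell in 4 of 6 genes, of the distal convoluted and connecting tubule in 3 of 5 and of intercalated cells in 3 of 6. Without the block 2 proximal tubule markers fell and 1 principal cell marker rose, and none of the other 3 segments passed. In CKD627, 6 of 6 loop, 2 of 5 distal, 5 of 6 intercalated and 6 of 7 principal cell markers were higher. With the pairing, markers of collecting duct principal cells rose in 7 of 7, with sums of 195 to 2259 CPM in negative and 968 to 5293 CPM in positive libraries. The part of these markers in the lipid gene differences was not tested. Other cells known to make Lpl or Cd36 gave these values. Of 8 adipocyte markers, Adipoq, Plin1 and Adrb3 had no count in any library and only Lipe was tested. The summed adipocyte level, mostly Lipe, was 13.3 to 17.3 CPM in negative and 14.3 to 19.2 CPM in positive libraries. Of 7 endothelial markers none passed in the paired edgeR fit of the Tomato comparison (0 at an unadjusted p under 0.05, with or without the block), with sums of 114 to 574 CPM in negative and 46.7 to 695 CPM in positive libraries. In CKD627, 6 of the 7 were higher. Of 6 tested leukocyte markers (8 listed), the lysosomal Cd68 rose and none fell with the pairing (an unadjusted p under 0.05 in 2). Csf1r went the other way, from a mean of 26.5 to 10.9 CPM, and did not pass (paired log2 -1.52, edgeR adjusted p = 0.0617). The summed leukocyte level was 41.3 to 55.1 CPM in negative and 33.1 to 44.7 CPM in positive libraries.

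The wider lipid pathway was read from 9 lists holding 124 other genes, of which 112 were tested. These lists were drawn up with earlier results of these data known. Their counts, shares, medians and p-values, here and below, are therefore descriptions and no independent test of the pathway. Without the block 1 gene passed, the fatty acid hydroxylase gene Cyp4a14, which fell (163 ± 76.5 to 32.8 ± 6.62 CPM, SD, n = 4 per group; log2 -2.40 ± 0.37, edgeR adjusted p = 0.0407). This is 0.893% of the 112 genes, against 0.595% of all genes. With the block 12 fell and 1 rose, 11.6% of the 112 against 7.62% of all genes. The median paired log2 difference was -0.20 over the 112 genes. Between prefixes 43 were lower and 9 higher in CKD627 (46.4% against 21.1% of all genes), in the fit over both Tomato groups, whose p-values are too small. Of 17 tested other textbook targets of PPAR alpha, mostly enzymes of fatty acid oxidation, 8 fell with the block and none rose (median -0.72). These were Cyp4a14, its close relative Cyp4a10, the mitochondrial genes Cpt2 (carnitine shuttle) and Acadm (medium-chain dehydrogenase), the peroxisomal genes Ehhadh and Acaa1b, the thioesterase gene Acot1 and the kinase gene Pdk4. Within CKD523 alone 15 of the 17 fell and 1 rose (Ucp2), where 8.38% of all genes were lower. Within CKD627 alone only Cyp4a14 fell and none rose, where 1.01% of all genes were lower.

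Cpt2 went from 87.6 ± 23.0 to 41.7 ± 8.77 CPM (SD, n = 4 per group; paired log2 -1.10 ± 0.16, edgeR adjusted p = 0.00718, 0.0905 without the block). Acaa1b had a paired log2 difference of -1.18 ± 0.18 (edgeR adjusted p = 0.00928, 0.221 without the block). Cpt1a (-0.26) did not pass over both prefixes. Reads of near copies such as Cyp4a10 and Cyp4a14, Acot1 and Acot2, Acaa1a and Acaa1b, or the Ces1 genes may be shared, which makes their separate values uncertain. Of the regulators, none of 14 tested genes passed in edgeR over both prefixes, with or without the block (an unadjusted p under 0.05 in 2 with the block and 1 without it, and neither DESeq2 nor limma-voom called any). Ppara itself had a paired log2 difference of -0.17 ± 0.24 and was 56.2 ± 41.2 CPM in negative and 42.8 ± 17.2 CPM in positive libraries (SD, n = 4 per group). Within CKD523 alone 7 of 13 tested regulators fell and none rose, among them Ppara (log2 -0.73, edgeR adjusted p = 0.00776), which had a log2 difference of 0.35 within CKD627, where none passed. Ppara was lower in CKD627 than in CKD523 in the fit over both Tomato groups (log2 -1.67 ± 0.27, edgeR adjusted p = 0.00151). This p-value is too small, because libraries sharing an identifier are not independent. The coactivator gene Ppargc1a (-0.37), the receptor gene Esrra (-0.48, paired edgeR adjusted p = 0.0527), the lipogenic factor gene Srebf1 (0.02), the oxysterol receptor gene Nr1h3 (-0.50) and Pparg, the adipocyte receptor (1.13, at 0.876 and 1.89 CPM), did not pass over both prefixes.

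In the list of fatty acid uptake, binding and activation, 2 of 14 fell with the block and none rose (median -0.41). Fabp3, the heart-type binding protein, went from 18.4 ± 2.58 to 9.996 ± 2.20 CPM (paired log2 -0.93 ± 0.21, edgeR adjusted p = 0.0346, 0.0819 without the block), and Dbi, which binds acyl-CoA, fell by 0.60 ± 0.15 on the log2 scale (paired edgeR adjusted p = 0.0489, 0.285 without the block). Slc27a6, a transporter of the same family as Slc27a2, was higher in all 4 pairs at a low level (means of 0.302 and 2.83 CPM) and did not pass. Among 9 tested genes of glyceride breakdown, the carboxylesterase gene Ces1f fell (225 ± 135 to 76.6 ± 27.1 CPM; paired log2 -1.44 ± 0.19, edgeR adjusted p = 0.00514, 0.152 without the block) and none rose. The hormone-sensitive lipase gene Lipe (0.14), the lipase activator gene Abhd5 (-0.26), Ces1g (-0.89) and the lipase inhibitor gene G0s2 (-1.10) did not pass over both prefixes. Within CKD523 alone 3 of these 9 genes fell, among them Ces1g (-1.29, edgeR adjusted p = 0.0112), and within CKD627 alone none passed. Of 12 tested droplet genes Cideb, which enlarges droplets and lipoproteins, fell (-0.69 ± 0.18, paired edgeR adjusted p = 0.0491, 0.558 without the block), while Plin5 (-1.29), Fitm1 (-1.07) and Plin3 (0.10) did not pass. The adipocyte coat gene Plin1 had no count.

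None of the 15 tested genes of glyceride synthesis other than Mogat1, Dgat1 and Dgat2 passed in edgeR over both prefixes, with or without the block (an unadjusted p under 0.05 in 2 with the block and 0 without it, and neither DESeq2 nor limma-voom called any), and their median was -0.23. Within CKD523 alone 5 of 15 fell, among them Gk (-1.08, edgeR adjusted p = 4.66e-04), and within CKD627 alone none of 14 passed. The acyltransferase genes Gpat3 (0.52) and Agpat4 (-0.56) and the glycerol kinase gene Gk (-0.51) had the smallest p. Of 13 partners of lipoprotein lipase and lipoprotein receptors none passed in edgeR over both prefixes either (an unadjusted p under 0.05 in 3 with the block and 3 without it, while DESeq2 called 2 higher and limma-voom 0). Within CKD523 alone the receptor genes Scarb1 rose (0.97, edgeR adjusted p = 0.00692) and Vldlr fell (-0.45, edgeR adjusted p = 0.0358). Lmf1, needed for the folding of lipoprotein lipase, was lower in 4 of 4 pairs (-0.38 ± 0.15), and Gpihbp1, the endothelial anchor of the enzyme, was at 7.29 ± 6.12 and 3.51 ± 2.56 CPM. Lrp1, a lipoprotein receptor, was higher in 4 of 4 pairs (1.19 ± 0.32, paired edgeR adjusted p = 0.0607), as was the endothelial lipase gene Lipg (1.10 ± 0.36), and neither passed. Fatty acid synthesis and desaturation held the 1 gene that rose with the block: Scd2, a desaturase, went from 376 ± 186 to 645 ± 335 CPM (paired log2 0.72 ± 0.13, edgeR adjusted p = 0.0139, 0.380 without the block). The synthase gene Fasn (0.54), the carboxylase gene Acacb (-0.98) and Me1 (-0.49) did not pass over both prefixes. Within CKD523 alone 5 of 13 genes of this list fell, where 8.38% of all genes were lower, and Scd2 rose. Among those that fell were Acacb (-1.52, edgeR adjusted p = 0.00788) and Me1 (-0.73, edgeR adjusted p = 0.00475). Within CKD627 alone none of the 13 passed. Of 5 tested genes of lipid export none passed in edgeR over both prefixes (an unadjusted p under 0.05 in 2 with the block and 1 without it, while DESeq2 called 1 higher and limma-voom 0). The cholesterol exporter gene Abca1 (0.68) and Apoe (0.34) were higher in 4 of 4 pairs, and Apob had a difference of 0.80. Within CKD627 alone Apob rose (1.70, edgeR adjusted p = 0.0272), against -0.16 within CKD523, where Mttp fell (-0.63, edgeR adjusted p = 0.0493). The count of 13 with the block was 3 without the pair CKD523_3 (Cyp4a10, Cyp4a14 and Ces1f, which passed without any 1 pair), 6 without CKD523_2, 7 without CKD627_2 and 22 without CKD627_1. Fabp3, Dbi and Cideb passed in 0 of these 4 fits and Scd2 in 1.

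**Figure D4:**
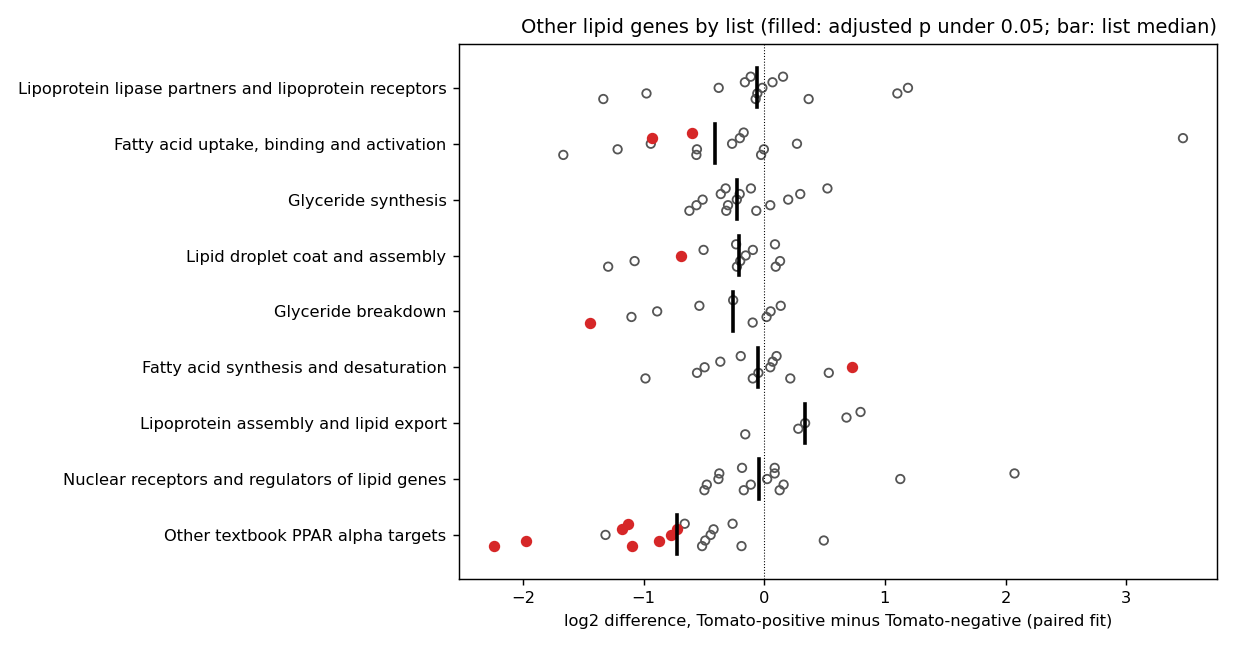
Log2 difference of Tomato-positive minus Tomato-negative in the paired fit (x axis) for 112 tested genes in 9 lists (rows), with filled points for genes with an adjusted p under 0.05 and bars for list medians. The filled points are 8 PPAR alpha targets, Fabp3, Dbi, Cideb and Ces1f to the left of 0 and Scd2 to the right.

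The genes whose level followed that of Lpl most closely over the 8 libraries, by Pearson correlation of log2 CPM among 11325 genes with a mean of at least 5 CPM, were Kap (0.979), Dbt (0.977), Akr1c14 (0.977), Coq9 (0.971) and Acat1 (0.970). For Mogat1 they were Nfs1 (0.987), Acat1 (0.985), Ech1 (0.984), Pccb (0.981) and Hspa9 (0.980). Among the 9 genes themselves the closest were Dgat2 with Slc27a2 (0.945), Lpl with Mogat1 (0.933) and Mogat1 with Cd36 (0.908). The 8 libraries fall into 2 Tomato groups and 2 prefixes, which these values share.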

How the data were processed

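The table deposited by the authors held raw counts per gene symbol for 8 libraries. Reads were aligned with subread, per the file headers, and the submitters' processing notes name mm10, edgeR 3.32.1 and limma 3.46.0. For strand, annotation and counting tool the sources used here give nothing, so reads of overlapping or antisense genes cannot be told apart. Per the labels' protocols, RNA came from a Norgen kit for single cells and libraries from NEBNext Ultra.

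Genes were kept with filterByExpr (a minimum count of 10 in 4 libraries and 15 in all), which left 14284 genes (56.6%). Tests were 2-sided, by the quasi-likelihood method of edgeR 4.0.16 with TMM factors (R 4.3.3), Benjamini-Hochberg adjustment over all genes tested and a threshold of 0.05. SE was the log2 difference over the root of F. DESeq2 1.42.0 and limma-voom (limma 3.58.1) were alternatives, and the scripts were tested on simulated data. The simulated counts for the fit without the block held no prefix difference, so they do not show how that fit behaves with it. CPM values were scaled to the library total. Positions and exon lengths came from GENCODE M21 (GRCm38, as mm10). The interval level was 95%. The limit of 3 counts covers counting error only.

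Between libraries of a group, chi-square over its degrees of freedom was 15.5 to 191, well above sampling noise, and each library was treated as 1 sample. This range includes pairs of libraries of different prefixes. For pairs of the same prefix the values were 15.5 and 44.5 (negative) and 17.4 and 23.7 (positive). Such a spread cannot show whether libraries came from separate animals. After removal of Tomato group means, libraries sharing a title identifier correlated at 0.46, 0.32, 0.33 and 0.47, above the limit of 0.1 for pairing. Libraries of an identifier also share a prefix, whose difference was not removed, so this correlation cannot tell pairing from prefix. The paired fit is given beside the fit without the block. The members, lists and tests were chosen with earlier results of these data known. Named were all 10 genes, every gene of the wider lists past the threshold without the block, up to 3 per list with the smallest paired p, 5 regulators or partners whatever their result, and the 5 genes most like Lpl and Mogat1. Others were chosen after their values were seen.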

Additional observations from a re-analysis of the deposited data

Results flagged for a closer look

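For Plin2 and Angptl4 the CPM ratio of the Tomato groups went one way in both CKD523 pairs and the other way in both CKD627 pairs. The CKD523 pairs of Angptl4 were nearly level, and the fitted difference within CKD523 was -0.04, with the same sign as in CKD627 (-0.74). For Plin2 the log2 difference of CKD627 was 0.38 above that of CKD523 (95% bounds -0.36 and 1.12), and for Angptl4 it was -0.67 (95% bounds -1.25 and -0.09). These bounds are not adjusted for the number of genes, and neither gene passed in the edgeR fit of this difference. The genes were chosen with these values known, so they are descriptions and nothing is read from them.

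The Tomato-positive library CKD627_1 lay apart from the other 3 of its group for Fabp1, with 0 counts, and the gap to the next library was 0.843 of the group's range. Chance marks about 1 in 20 groups of this kind, and 20 groups were looked at.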

How the results depend on the processing

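For the 9 tested genes, 194 of 234 alternative values of the Tomato difference kept their direction and their side of the threshold. All 234 values reuse the libraries on which the genes were chosen, so they are descriptions. The 5 that changed sign all belonged to genes that did not pass: Plin2 in prefix CKD627 alone (0.00887) and without the negative library CKD523_2 (0.0171, from -0.361 over the 8 fits without 1 library), and Angptl4 without the negative library CKD523_3 (0.0625) or the positive libraries CKD627_1 (0.0906) and CKD627_2 (0.0476), from -0.54. Without the replicate block 85 genes were called over the whole table, 2 of them among the 10. With it (paired) the counts were 1089 and 4, and they were 1527 and 4 with the prefix as a covariate, 2231 and 5 in prefix CKD523 alone, and 2026 and 4 by DESeq2 with the block. Further whole-table counts were 303 in prefix CKD627 alone, 45 with no filter and 1000 by DESeq2. By limma-voom 1 of the 10 genes passed. Leaving out 1 library gave 6 to 26 genes over the table and 0 or 1 of the 10. With the block and without 1 pair it gave 521 (CKD523_2), 203 (CKD523_3), 1319 (CKD627_1) and 384 (CKD627_2), with 3 or 4 of the 10. With the block, DESeq2 size factors gave 1091 and library size only 1093, each with 4 of the 10, and both were added after the data were seen.

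For the 112 other lipid genes the 1 call became 13 with the replicate block, 18 with the prefix as a covariate, 44 and 2 in prefixes CKD523 and CKD627 alone, 11 by DESeq2 and 29 by DESeq2 with the block. It was 0 or 1 without any 1 library, 6, 3, 22 and 7 with the block without CKD523_2, CKD523_3, CKD627_1 and CKD627_2, and 14 and 11 with the block under DESeq2 size factors and library size only. Between prefixes 3014 genes passed, and 1890 among positive libraries alone. Of the 10 genes 3 passed in each of these fits. Among negative libraries alone 2541 genes passed, 6 of them among the 10. With no filter the counts were 3327 and 5, and without 1 library 2212 to 3151 and 3 to 5. For the interaction of prefix and Tomato group DESeq2 called 280 genes and 1 of the 10, where edgeR called 2 and 0, and nothing is read from this for the 10, whose values within prefixes were known. For all of these the cause was not tested. A 0 for Fabp1 is limited by depth.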
